A study of Drosophila melanogaster with 48 samples.

Results

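Fatty acid desaturases and elongases were followed through 48 whole-body RNA profiles of adult Drosophila melanogaster. The list holds 6 genes, chosen by symbol: the desaturases Desat1 and Fad2 (also written desatF), and the elongases eloF, CG17821, bond and Baldspot. Of the 11982 genes with a probe set of their own on the array, 5 belong to this list, each with 1 probe set: Desat1 (1628213_s_at), Fad2 (1633820_at), eloF (1632453_at), CG17821 (1634728_at) and bond (1638324_s_at). Baldspot was not analysed here. The list was drawn up with earlier results of these arrays in view and its rule has no threshold, so the tests on its members describe these arrays and are not independent evidence.

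Adult flies came from 8 numbered lines, 158, 304, 362, 379, 380, 774, 786 and 859. Their larvae grew on standard cornmeal-molasses food enriched with tomato paste, on standard food with 9% ethanol, or on standard food alone, and all adults were kept on standard food at the same temperature and light cycle. Each of the 24 combinations of line and larval food holds 2 arrays, which gives 16 arrays for each food and 6 for each line. The labels define neither the line numbers nor the sex of the flies, give an age (3 to 5 days) for 4 arrays only, and do not give the number of cultures behind a pair of arrays. Where a p-value rests on the spread within such pairs, it measures that spread alone, which may be technical.

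Desaturases place double bonds into fatty acyl-CoA, and ELO-family elongases carry out the first, condensing step by which the chain is lengthened. In flies the longest of these chains are made in oenocytes, cells under the abdominal cuticle, and end as cuticular hydrocarbons, which limit water loss and act as pheromones. Desat1 makes the first double bond and is used broadly. Fad2 and eloF are known from females of this species, in which Fad2 adds the second double bond of the dienes that males court and eloF lengthens those dienes. The elongase bond is needed for cytokinesis in spermatocytes and for a male pheromone of the ejaculatory bulb. CG17821 is annotated as an ELO-family elongase. Baldspot is the fly relative of mammalian ELOVL6.

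All 5 measured members were among the 11261 probe sets kept for testing, which were the 60% with the highest mean log2 signal. Values are array signals on a linear scale, which the authors scaled to a common mean in every array. A signal is compared here only with the same probe set on other arrays. Probe sets whose name ends in _s_at, here those of Desat1 and bond, can match more than 1 transcript, and which ones was not examined. In whole flies, fewer cells of a type and less RNA per cell cannot be told apart.

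Both female and male markers were present on the arrays. The mean log2 signal of eggshell genes (chorion and vitelline membrane) ran from 3.67 to 13.11 over the 48 arrays, that of yolk protein genes from 12.44 to 14.65 and that of sperm genes of the testis from 8.81 to 10.75. The eggshell index was lower after tomato and ethanol, at 10.26 ± 1.12 and 11.04 ± 1.98, than on standard food, at 12.31 ± 0.33 (mean ± SD of 8 lines each), and 15 arrays (11 tomato, 4 ethanol) lay below the lowest standard array. Titles of 15 arrays (11 tomato, 4 ethanol, 0 standard) carry a hyphen before the array number, while those of the other arrays carry a space. Among tomato arrays of the 5 lines with 1 of each kind, 4856 of the 11261 probe sets (43.1%) differed by title style at a Benjamini-Hochberg adjusted p under 0.05 in limma, none of them a member. The first standard array of line 380 had the lowest median signal of all 48 arrays, 84.2, and the lowest testis, ejaculatory bulb and oenocyte indices, so values that it moves are also given without it. All 5 members still differed between lines when it was left out, as did 5949 of the 11261 tested probe sets.

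**Figure D1:**
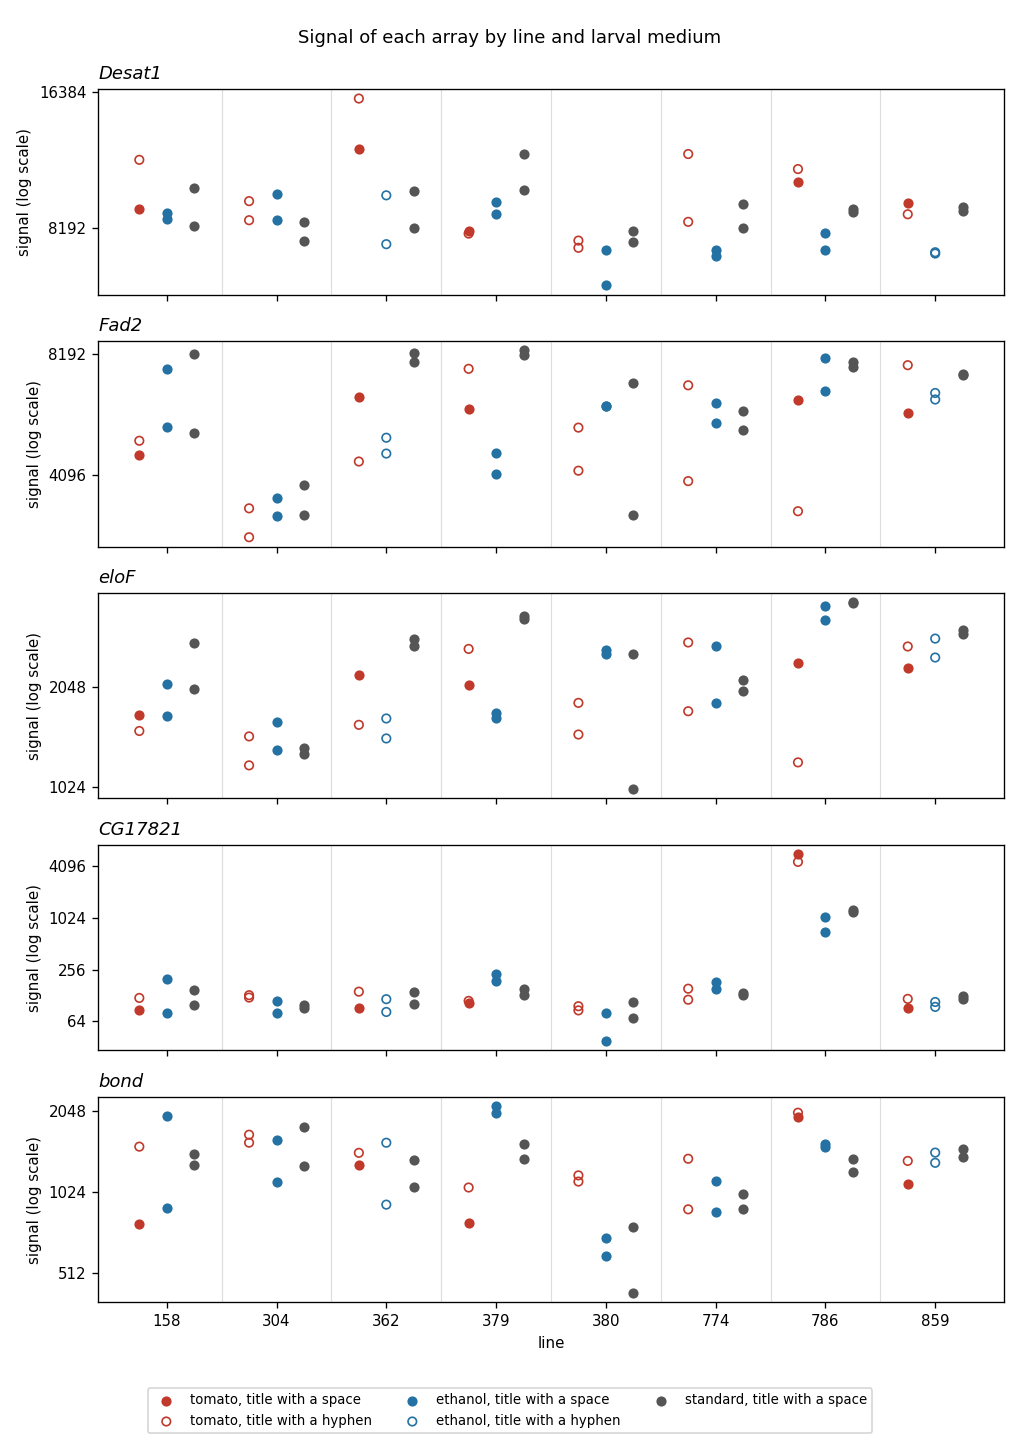
Signal of each of the 48 arrays (log axis, base 2) for the 5 measured genes, by line, with tomato, ethanol and standard food from left to right within a line. Filled points are arrays whose title has a space and open points those with a hyphen. CG17821 in line 786 lies between 704 and 5691 and stands above every array of the other lines, and Fad2 and eloF are low in line 304.

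The question put to the lines was whether the genes differ in level between them when the foods are averaged. All 5 measured members differed between lines (limma F-test with 7 numerator degrees of freedom on 48 arrays), on a background of 61.8% of all tested probe sets that did. The range of the 8 line means was 4.55 log2 units for CG17821, which is a 23.4-fold difference between the highest and the lowest line. It was 1.07 for bond (0.94 without the first standard array of line 380), 1.04 for eloF, 1.02 for Fad2 and 0.48 for Desat1, against a median of 0.753 over all tested probe sets. CG17821 thus had a wide range, with 88 tested probe sets wider, while that of Desat1 was narrower than that of 8919.

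CG17821 was high in line 786 on every food. In that line its signal was 4635 and 5691 on tomato food, 704 and 1046 on ethanol food and 1204 and 1290.1 on standard food. In the other lines the 14 arrays of each food ran from 86.0 to 154 (median 113) after tomato, from 37.8 to 230 (median 110) after ethanol and from 69.4 to 153 (median 122) on standard food. The 6 arrays of line 786 do not overlap with any of the other 42. Line 786 was 46.6-fold above the mean of the other lines after tomato, 7.63-fold after ethanol and 10.8-fold on standard food, folds of uncertain size, since the medians of the other lines lie near the lowest mean signal kept for testing, 59.7. Averaged over foods the difference was 3.97 log2 units (SE 0.15), or 15.7-fold. This contrast was chosen after its values were seen and is given without a test. The line F-test for CG17821 had an adjusted p of 1.4e-15, and 0.0082 without line 786.

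The line 786 signal also differed with larval food. Tomato arrays of this line were 2.04 log2 units (SE 0.35) above its standard arrays and 2.58 (SE 0.35) above its ethanol arrays, and both tomato arrays lay above all 4 others. The tomato minus standard difference of line 786 exceeded the mean of the other 7 lines by 2.11 log2 units (SE 0.37), and the tomato minus ethanol difference by 2.61 (SE 0.37). These contrasts too were chosen after their values were seen. In the test of line by medium interaction across all probe sets, CG17821 ranked 11 of 11261 by p but did not pass (adjusted p = 0.13). It passed after quantile normalisation (0.038) and with title style as a block (0.015), where 1834 of all probe sets passed. It also passed without the first or the second ethanol array of line 158. CG17821 did not pass in 46 of the 48 fits that left out 1 array, nor in 7 of 9 other settings. One of the tomato arrays of line 786 has a hyphen title and the other a space, with the space-titled array the higher. Their eggshell indices were 9.27 and 11.60, both below the lowest standard array, 11.63. The part of title style or of eggshell content in this food difference was not tested, since leaving out arrays of low eggshell index removes both.

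The gene next to CG17821 in the RefSeq annotation of Release 6 is CG18609, another ELO-family elongase. Its signal in line 786 was 1423 to 1525 after tomato, 1740.2 to 1762 after ethanol and 1468 to 1575 on standard food, against 1103 to 4465, 1241 to 3655 and 683 to 2724 in the other lines. CG18609 in line 786 thus lay inside the range of the other lines on each food. Below line 786 the order of CG17821 line means was 379, 774, 158, 362, 859, 304 and 380. Neighbours in this order differed by more than 2 SE of a line difference (SE 0.20) only between lines 786 and 379, and between 304 and 380. Line 380 minus line 304 was -0.47 log2 units. Without the first standard array of line 380 it was -0.36, which is within 2 SE at the same SE.

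Fad2 and eloF, the pair known from female diene synthesis, were lowest in line 304. In this line Fad2 had signals of 2866 and 3383 on tomato, 3232 and 3583 on ethanol and 3253 and 3870 on standard food, and only 2 of the 42 arrays of other lines lay inside that span, with 40 above it. The eloF signal in line 304 was 1187 and 1452 after tomato, 1324 and 1607 after ethanol and 1284 and 1343 on standard food, with 36 of the 42 other arrays above this span, 5 inside and 1 below. Averaged over foods, line 304 was below the mean of the other 7 lines by 0.83 log2 units for Fad2 (SE 0.13, a ratio of 0.562) and by 0.72 for eloF (SE 0.13, a ratio of 0.607). This contrast was chosen after its values were seen.

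Among the other lines, the order for Fad2 was 859, 786, 379, 362, 158, 774 and 380, and for eloF 786, 859, 379, 774, 362, 158 and 380. For both genes no neighbours in the order differed by more than 2 SE (SE 0.17 for Fad2 and 0.18 for eloF) except lines 380 and 304 at the lower end. Without the first standard array of line 380, that line was the fourth lowest for Fad2 and the fifth lowest for eloF, and line 304 was still the lowest for both. The line F-test gave an adjusted p of 0.00030 for Fad2 and 0.00033 for eloF. When line means were set against their variation between foods rather than between arrays, eloF was at 0.052 and no longer passed, and Fad2 still did. Line 304 also had the lowest oenocyte index, 9.83, against 10.04 to 10.31 in the other lines, though its 5 marker genes were not all lowest there. Whether that index has a part in the low Fad2 and eloF was not tested.

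Fad2 and eloF moved together across arrays. Pearson's r of their log2 signals was 0.92 over the 24 combination means, 0.93 over 48 arrays after removal of line means and 0.93 between the deviations of arrays from the mean of their own combination. These are descriptions over points that share the same arrays, and leaving out any 1 line kept the value within lines between 0.92 and 0.94. Without the first standard array of line 380 these values were 0.92, 0.93 and 0.90. In 17 of 24 combinations the same array was the higher for both. The widest gap between arrays of 1 combination was on standard food in line 380, where the first array had 3261 for Fad2 and 1006 for eloF and the other had 6956 and 2571. In line 786 after tomato the hyphen-titled array had 3327 for Fad2 and 1212 for eloF, against 6280 and 2417 for the space-titled one.

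**Figure D2:**
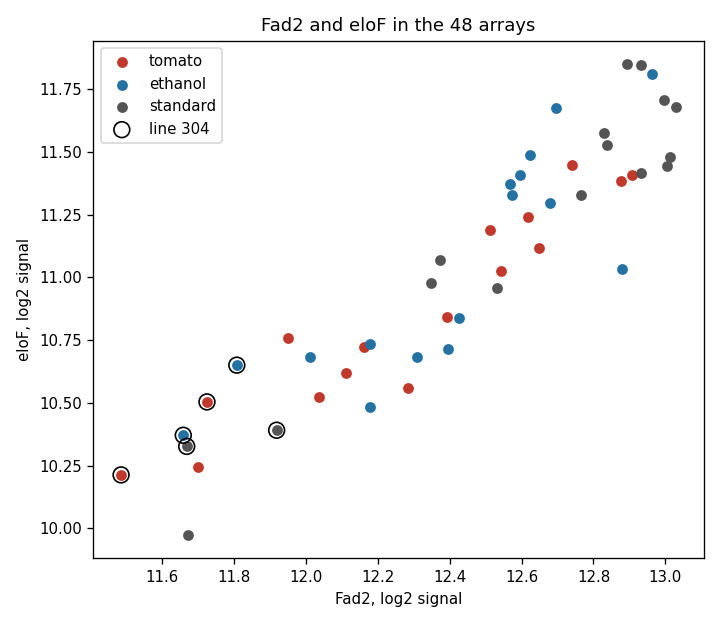
Log2 signal of eloF (vertical) against that of Fad2 (horizontal) on the 48 arrays, coloured by larval food, with the 6 arrays of line 304 ringed. The points follow 1 rising band (r = 0.93 within lines), and the line 304 arrays sit at its lower end.

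The 3 genes whose 24 combination means correlated best with Fad2 among 9414 others were eIF3b (r = 0.83), Prp16 (0.79) and Non1 (0.79), and those for eloF were eIF3b (0.82), MFS1 (0.77) and Peritrophin-15b (0.77). Both fall short of the value of 0.92 between Fad2 and eloF themselves. For Desat1 the closest were Oda (0.91), AcCoAS (0.84), which makes acetyl-CoA from acetate, and RNASEK (0.79). For bond they were CG11929 (0.92), yellow-e (0.91) and CG15425 (0.90). For CG17821 they were Daao1 (0.82), CG3301 (0.81) and grnd (0.80), and these 3 values were 0.33, 0.56 and 0.42 without line 786.

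Line 380 was lowest for bond, CG17821 and Desat1. For bond its arrays had 1120.1 and 1181 after tomato, 589 and 690.1 after ethanol and 430.5 and 761 on standard food. The other lines ran from 780 to 2023 after tomato, 865 to 2141 after ethanol and 883 to 1791 on standard food (14 arrays each). The groups did not overlap on ethanol and standard food, and did overlap on tomato. Averaged over foods line 380 was below the other 7 lines by 0.82 log2 units for bond (SE 0.14), by 1.23 for CG17821 (SE 0.15), where line 786 raises the mean of the others, and by 0.30 for Desat1 (SE 0.07). Without the first standard array of that line it was below them by 0.68, 1.12 and 0.32 log2 units for bond, CG17821 and Desat1, and was still the lowest line for each. These contrasts were chosen after their values were seen. Of all tested probe sets, 23.9% were lowest in line 380.

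The order for bond was 786, 304, 379, 859, 362, 158, 774 and 380. Only lines 774 and 380 differed as neighbours by more than 2 SE (SE 0.19), and the line F-test gave an adjusted p of 0.00030. Without the first standard array of line 380 the range of bond line means was 0.94 log2 units in place of 1.07. The gap between lines 774 and 380 was then within 2 SE, at the same SE. Line 380 also had the lowest testis index, 9.59 (9.72 without its first standard array), against 9.80 to 10.52 in the other lines, and its part in the low bond signal was not tested. Desat1 ran in the order 362, 158, 379, 786, 304, 774, 859 and 380, where only lines 859 and 380 differed as neighbours by more than 2 SE (SE 0.09). Desat1 passed the line test (adjusted p = 0.0039) but not after quantile normalisation (0.43), nor against the variation between foods (0.22), nor without the arrays of low eggshell index (0.17).

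**Figure D3:**
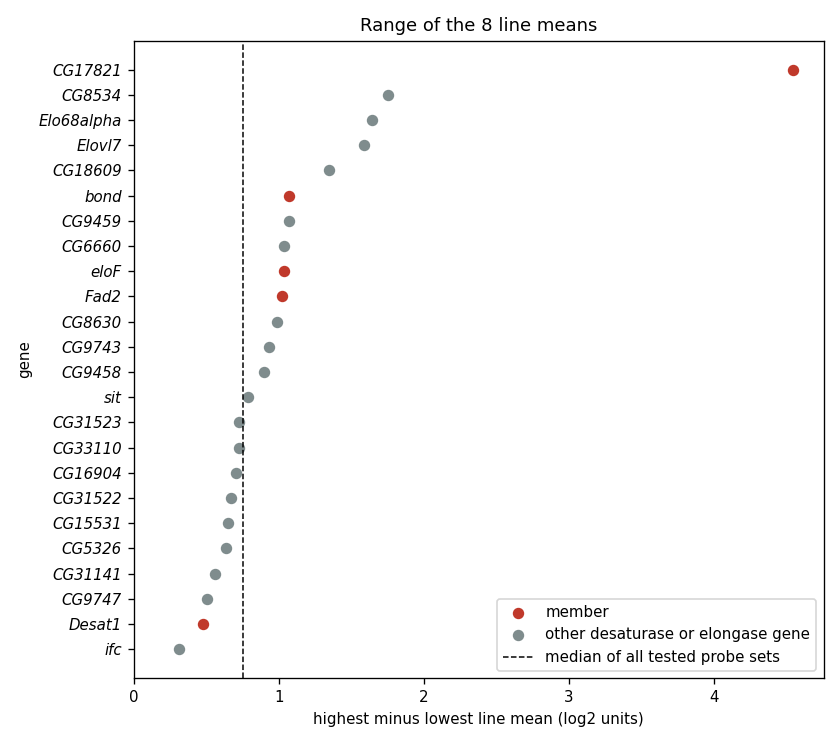
Highest minus lowest of the 8 line means, in log2 units, for the 5 measured members (red) and the other 19 tested desaturase and elongase genes (grey). The dashed line is the median of all tested probe sets, 0.753, and CG17821 lies at 4.55.

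The foods were compared to ask whether what larvae ate left a difference in adults, with each difference between foods set against its variation over the 8 lines. Of the 5 measured members, 0 passed in any of the 3 comparisons in limma. The background was 1.15% of tested probe sets for tomato against standard, 0% for ethanol against standard and 0.107% for tomato against ethanol. At an unadjusted p under 0.05 there were 2 members for tomato against standard, Fad2 and eloF, with 2383 of all 11261 probe sets. There were 0 members for ethanol against standard, with 628 of all, and 1 for tomato against ethanol, Desat1, with 757 of all. Standard arrays are shared by the first pair of these comparisons, and tomato arrays by the first and last.

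Fad2 had signals of 2866 to 7686 after tomato (median 5178), 3232 to 7992 after ethanol (median 5786) and 3253 to 8364 on standard food (median 7300.2), 16 arrays each. The 3 groups overlap widely, while within lines the tomato mean was below the standard mean in 8 of 8, and both tomato arrays lay below both standard arrays in 4 (158, 362, 379 and 786). In line 380 the means differed by only -0.0041 log2 units, and by -0.55 without its first standard array. The mean log2 signal was 12.29 ± 0.35 after tomato, 12.41 ± 0.36 after ethanol and 12.61 ± 0.43 on standard food (SD over 8 lines). Tomato minus standard was -0.32 (SE 0.12, a ratio of 0.803, adjusted p = 0.16). Without line 379 it was again -0.32 with an adjusted p of 0.039, in a fit where 2856 of all tested probe sets passed in place of 129.

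For eloF the arrays ran from 1187 to 2792 after tomato (median 1782), 1324 to 3597 after ethanol (median 1965) and 1006 to 3692 on standard food (median 2759). The ranges overlap, and within lines the tomato mean was lower than the standard mean in 6 of 8 (7 of 8 without the first standard array of line 380), with both tomato arrays below both standard arrays in 5. Tomato minus standard was -0.36 (SE 0.16, a ratio of 0.779, adjusted p = 0.21), from means of 10.86 ± 0.32 and 11.22 ± 0.52 (SD, 8 lines). Its largest difference was in line 786, at -1.11. The smallest in size was in line 304, where eloF was lowest and the difference was near 0.

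In the arrays with a space in their title the tomato minus standard difference was -0.32 (SE 0.15) for Fad2 and -0.37 (SE 0.18) for eloF, with adjusted p of 0.41 for each. Without the arrays of low eggshell index it was -0.21 (SE 0.13) and -0.18 (SE 0.17). These settings keep largely the same tomato arrays, a single array in each of lines 158, 362, 379 and 859. The space-titled setting adds line 786 and the eggshell setting line 774, so they are not separate checks. Without the first standard array of line 380 the tomato minus standard difference was -0.38 and -0.45. Ethanol minus standard was -0.20 (SE 0.12) for Fad2 and -0.19 (SE 0.16) for eloF, with adjusted p of 0.84 for both, and the lines disagreed, from -0.92 in line 379 to 0.35 in line 380 for Fad2 and from -0.98 to 0.70 for eloF in the same lines. The values of line 380 were -0.19 for Fad2 and 0.02 for eloF without its first standard array.

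Desat1 ran from 7416 to 15863 after tomato (median 9189), 6126 to 9742 after ethanol (median 7774) and 7626 to 11965 on standard food (median 8915). Within lines both tomato arrays lay above both ethanol arrays in 6 of 8, below them in line 379 and mixed with them in line 304. The ethanol mean was below the standard mean in 7 of 8 lines. Tomato minus ethanol was 0.27 log2 units (SE 0.09, a ratio of 1.21, adjusted p = 0.39), ethanol minus standard -0.16 (SE 0.09, adjusted p = 0.84) and tomato minus standard 0.11 (SE 0.09, adjusted p = 0.45). Without line 379 the tomato minus ethanol difference was 0.34 and its adjusted p was 0.039, in a fit where 376 of all tested probe sets passed in place of 12.

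The highest Desat1 signals were those of line 362 after tomato, 12267 and 15863, against 7554 and 9688 after ethanol and 8198 and 9919 on standard food. The tomato arrays of that line lie above all others of the line. Line 379 ran the other way, with 7973 and 8081 after tomato, 8795 and 9355 after ethanol and 9977 and 11965 on standard food. The interaction of line and medium for Desat1 did not pass (adjusted p = 0.30).

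AcCoAS, which was among the genes most alike to Desat1, was also highest in line 362 after tomato, with a mean log2 signal of 13.29, against 12.38 after ethanol and 12.73 on standard food there. Over the 8 lines AcCoAS averaged 12.67 ± 0.28 after tomato, 12.29 ± 0.19 after ethanol and 12.42 ± 0.22 on standard food, and its tomato minus standard difference of 0.25 (SE 0.09) did not pass (adjusted p = 0.15).

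**Figure D4:**
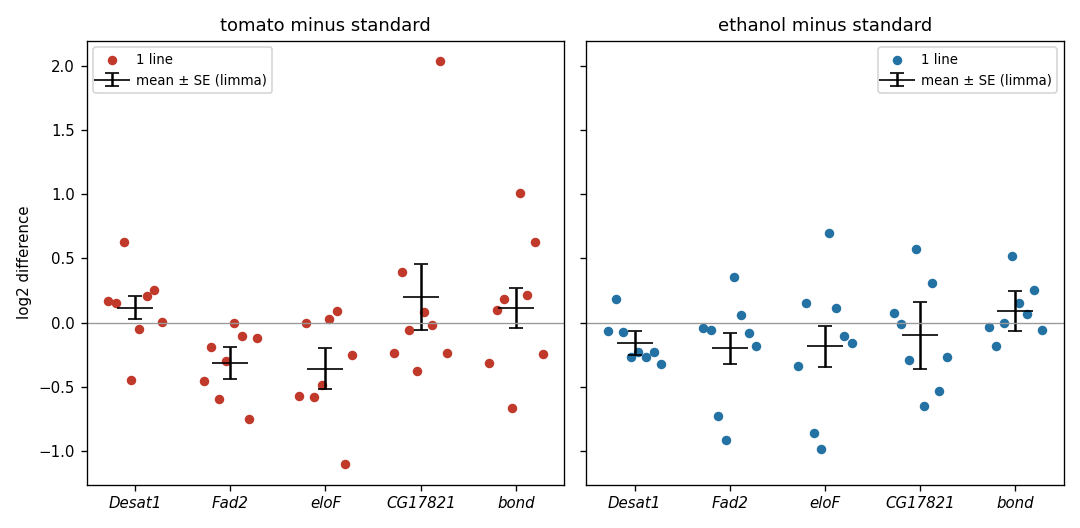
Log2 difference of each line (points) between tomato and standard food (left) and between ethanol and standard food (right), with the limma mean ± SE over the 8 lines (black). Fad2 is below 0 in 8 of 8 lines on the left, and the single CG17821 point at 2.04 is line 786.

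CG17821 and bond had no common direction between foods. CG17821 differed by 0.20 log2 units (SE 0.26, adjusted p = 0.66) between tomato and standard food with line 786 included and by -0.07 without that line. For bond the arrays ran from 780 to 2023 after tomato (median 1314), 589 to 2141 after ethanol (median 1376) and 430.5 to 1791 on standard food (median 1319), and tomato minus standard was 0.11 (SE 0.16, adjusted p = 0.68). Single lines differed in both directions, from -0.66 in line 379 to 1.01 in line 380. Without the first standard array of line 380 the value of that line was 0.60, the highest was 0.63 in line 786, and the average over lines was 0.06. The sign of the bond difference also turned with the arrays used, at -0.31 (SE 0.19) in space-titled arrays and -0.35 (SE 0.13) without the arrays of low eggshell index. These settings share most of their tomato arrays. In pairs of tomato arrays of 1 line the hyphen-titled array was higher by 0.38 on average (SE 0.15, adjusted p = 0.067, 5 pairs).

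Of the 5 measured members, 0 passed the test of line by medium interaction, where 0% of all tested probe sets did. At an unadjusted p under 0.05 there were 4 members (CG17821, Desat1, eloF and bond) and 1453 of all 11261 probe sets. The adjusted p was 0.31 for eloF, 0.34 for bond and 0.48 for Fad2.

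The members differed in which tissue marker genes they went with over the 48 arrays, once line means were removed. The log2 signal of bond went with the testis index (r = 0.88), and less closely with the ejaculatory bulb (0.65) and oenocyte indices (0.64), and against the eggshell index (-0.62). CG17821 showed r = 0.57 with the testis index, 0.52 with the seminal fluid index and -0.46 with the eggshell index. The food means of CG17821 varied most in line 786 (SD 1.36 log2 units, against 0.15 to 0.48 in the other lines). Its correlations with the indices were not computed without that line. The deviations of bond and CG17821 from the mean of their own combination correlated at 0.75, and the same array was higher for both in 18 of 24 combinations. Fad2 and eloF correlated near 0 with the testis index (-0.06 and -0.03), at 0.36 each with the eggshell index, at 0.41 and 0.44 with the oenocyte index and at -0.44 and -0.49 with the fat body index. Without the first standard array of line 380, Fad2 and eloF correlated at -0.22 each with the testis index and at 0.30 and 0.31 with the oenocyte index, and bond at 0.86 with the testis index.

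Desat1 went against the yolk index (-0.56) and the eggshell index (-0.44). The GAPDH control of RNA quality moved with some members too, and the actin control hardly did. The difference between the 3' and 5' probe sets of GAPDH was 0.79 log2 units after tomato, 0.92 after ethanol and 1.00 on standard food. It correlated at -0.59 with Desat1, 0.49 with Fad2 and 0.45 with eloF. The same difference for actin correlated at 0.15 with Desat1, 0.09 with Fad2 and 0.15 with eloF. These are descriptions over arrays that share line, food and hybridisation, and their part in the differences between foods was not tested.

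**Figure D5:**
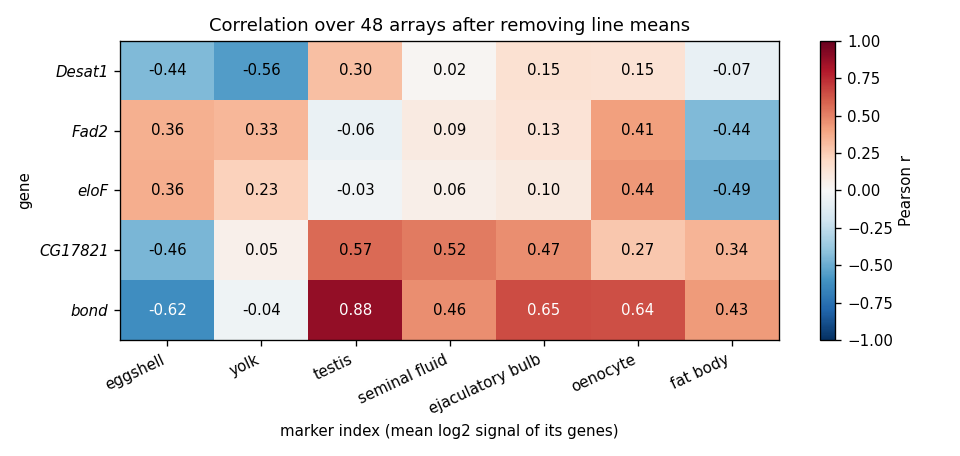
Pearson r over 48 arrays, after removal of line means, between the log2 signal of each gene (rows) and the mean log2 signal of 7 sets of marker genes (columns). The largest value is that of bond with the testis index, 0.88, while Fad2 and eloF have values of -0.06 and -0.03 there.

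Of 22 other desaturase and elongase genes listed, 19 were tested. Between lines 13 of 19 passed, beside 61.8% of all probe sets. Those with the smallest p were Elovl7, with a range of line means of 1.59 log2 units, CG18609 (1.35), CG9458 (0.902), CG9459 (1.07), CG6660 (1.04) and Elo68alpha (1.65). CG9458 and CG9459 stand in 1 run of elongase genes with eloF, CG8534 and CG16904, and, like eloF, CG9458, CG9459 and CG16904 had their lowest line mean in line 304. In all, 6 of the 19 genes were lowest in line 304, beside 8.31% of all tested probe sets, and 6 others, CG8534 among them, were lowest in line 380, beside 23.9%. Line 379 was the highest line for 8 of the 19, beside 12.6%. These genes are paralogs, and whether their probe sets also detect each other was not examined.

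CG9747, a relative of the desaturases, fell after tomato food, and 0 of the 19 rose. Its arrays ran from 367 to 1253 after tomato (median 585), 572 to 1203 after ethanol (median 846) and 835 to 1458 on standard food (median 1127). The tomato and standard ranges overlap, and the tomato mean was lower in 8 of 8 lines. Tomato minus standard was -0.79 (SE 0.12, adjusted p = 0.0051), from means of 9.32 ± 0.23 and 10.11 ± 0.21 (SD, 8 lines), with ethanol between at 9.76 ± 0.33. The difference was -0.44 (SE 0.15, adjusted p = 0.62) with title style as a block, -0.18 (SE 0.14, adjusted p = 0.49) in space-titled arrays and -0.31 (SE 0.16, adjusted p = 0.19) without the arrays of low eggshell index. The space-titled and eggshell settings share most of their tomato arrays. Without line 774 the difference was -0.76 with an adjusted p of 0.060.

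The remaining 18 did not pass between tomato and standard food. Nearest to the threshold were CG33110, at 0.59 (SE 0.15, adjusted p = 0.056), and CG18609, at 0.54 (SE 0.14, adjusted p = 0.068), which were singled out after their values were seen. The median difference of the 19 genes was 0.04 for tomato minus standard, beside -0.01 for all tested probe sets, and 0.11 for ethanol minus standard, beside 0.0039. Of these 19, 0 passed for ethanol against standard, for tomato against ethanol or for the interaction, beside 0%, 0.107% and 0% of all tested probe sets. At an unadjusted p under 0.05 there were 4, 2 and 3 in these comparisons, beside 5.58%, 6.72% and 12.9% of all. For tomato against standard there were 7, beside 21.2% of all.

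Genes that supply and use the products of these enzymes were measured with them. The list of hydrocarbon and fatty acid synthesis holds 23 genes, of which 20 were tested. Of these, 18 differed between lines, beside 61.8% of all tested probe sets, and the smallest p-values were those of Men (malic enzyme, range of line means 0.844 log2 units), bgm (an acyl-CoA synthetase, 0.751), Hacd1 (0.787) and Hacd2 (0.689), both 3-hydroxyacyl-CoA dehydratases of the elongation cycle, Lsd-2 (a lipid droplet coat protein, 1.03) and mdy (which makes triglyceride, 0.762). Line 304 was the lowest line for 5 of the 20 (FASN2, FASN3, Hacd1, Men and Lsd-2), beside 8.31% of all, line 786 for 4 (Cyp4g1, spidey, Hacd2 and FarO), beside 8.56%, and line 380 for 4 (FASN1, Sc2, Mdh1 and AcCoAS), beside 23.9%. Of the 5 oenocyte markers, FASN2 and FASN3, which encode fatty acid synthases, were lowest in line 304, Cyp4g1 and FarO in line 786 and svp in line 379.

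Between foods, 0 of the 20 passed for tomato against standard, ethanol against standard or tomato against ethanol, beside 1.15%, 0% and 0.107% of all tested probe sets, and 0 for the interaction, beside 0%. At an unadjusted p under 0.05 there were 6 for tomato against standard, 0 for ethanol against standard, 4 for tomato against ethanol and 2 for the interaction, beside 21.2%, 5.58%, 6.72% and 12.9% of all. Cyp4g1, the oenocyte P450 of the last step of hydrocarbon synthesis, had a mean log2 signal of 14.21 ± 0.14 after tomato, 14.27 ± 0.15 after ethanol and 14.40 ± 0.14 on standard food. Its tomato minus standard difference was -0.18 (SE 0.07, adjusted p = 0.17), and it did not pass between lines (adjusted p = 0.36), with a range of line means of 0.245.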

How the data were processed

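The deposited values are signal intensities of probe sets. The submitters' processing notes name MAS5, with a version not given in the sources used here. In every array the mean after trimming 2% at each end was 500.009 to 500.016, and the median 84.2 to 160.2. Signals were floored at 1 and taken to log2, 183 of 18952 probe sets were left out as controls, and the upper 60% by mean (11261) were tested. RefSeq Release 6 served for gene names and neighbours only.

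The fits used limma 3.58.1 (R 4.3.3). Food contrasts came from the 24 combination means, with terms for line and medium. With title or replicate number as a block, and in space-titled arrays, they came from single arrays treated as independent. For lines, and for their interaction with medium, F-tests were run on all 48 arrays, with the spread within combinations as error. P-values were adjusted by Benjamini-Hochberg over all tested probe sets, with a threshold of 0.05, and the fits were tested on simulated data. An SE belongs to a fitted difference, except in the orders of lines, where it comes from the pooled spread within combinations. That SE leaves out the variation between foods, and neighbours were compared after the lines were sorted by value. Members and gene lists were chosen with earlier results of these data known. The text names every member, the 3 genes most alike to each by Pearson r over the 24 means, and called genes of 2 further lists, at most 6 a list by p.

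Indices are mean log2 signals of marker genes. Alternatives were quantile normalisation, median centring, other filters, a pseudocount of 16, array-level error, title or replicate number as a block, space-titled arrays alone, arrays of standard-like eggshell index, and leaving out lines or arrays. Setting aside line 786 or 1 array of line 380, and the test of lines against variation between foods, were chosen after seeing the data. Precision is limited by 2 arrays per combination.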

Additional observations from a re-analysis of the deposited data

Results flagged for a closer look

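The 8 line means of each gene on each food were examined for a value far from the others, which gave 15 groups of 8, and chance alone marks about 1 in 20 such groups. There were 3 such values. The mean log2 signal of CG17821 in line 786 was 12.33 after tomato, against 6.79 ± 0.19 in the other 7 lines (SD), and 10.28 on standard food, against 6.85 ± 0.26. That of Desat1 in line 379 on standard food was 13.42, above the other lines, in an average over all 8 of 13.12 ± 0.14 (SD).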

How the results depend on the processing

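The count of members that differed between lines was 5 in each fit that left out 1 array, 4 after quantile normalisation and without arrays of low eggshell index (Desat1 lost in both, adjusted p = 0.43 and 0.17, the second in a model of line and medium only), and 3 against the variation between foods, a test added after seeing the data (Desat1, 0.22, and eloF, 0.052). For the line by medium interaction it was 1 with quantile normalisation (CG17821, adjusted p = 0.038), where 5 of all probe sets passed. It was 2 with title style as a block (CG17821, 0.015, and Desat1, 0.045), where 1834 of all probe sets passed. When single arrays were left out, CG17821 passed only without the first or second ethanol array of line 158. With array-level error 1 member passed for tomato against standard (eloF, 0.042) and 1 for tomato against ethanol (Desat1, 0.021). Leaving out single lines gave 0 to 1 for tomato against standard (Fad2 without line 379, 0.039) and 0 to 1 for tomato against ethanol (Desat1 without line 379). Ethanol against standard gave 0 in every setting run. The cause of these changes was not tested.

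Of all probe sets, 129 passed for tomato against standard. With 1 line left out this ran from 2 (without line 774) to 2856 (without line 379). It was 239 after quantile normalisation, 73 with no filter, 884 with array-level error, and 0 with the title or replicate block, in space-titled arrays and without arrays of low eggshell index. For tomato against ethanol the count was 12, ran from 2 to 376 (without line 379) over lines left out, and from 0 to 21 otherwise. For ethanol against standard it was 0, and at most 40, in space-titled arrays. For the interaction it was 0, at most 28 with 1 array left out, and 119 without arrays of low eggshell index. Between lines it was 6954, with 7139 after quantile normalisation, 8368 without arrays of low eggshell index and 4196 against the variation between foods. It was 9362 with the title block, 8806 with the replicate block and 5949 to 8403 with 1 array left out.

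The following log2 differences changed sign. For CG17821, tomato minus ethanol was -0.10 and tomato minus standard -0.41 without arrays of low eggshell index, and the ranges over lines left out were -0.028 to 0.48 and -0.066 to 0.28, with the lowest without line 786 in both. For bond, tomato minus ethanol was -0.10 with the title block, -0.46 in space-titled arrays, -0.25 with the replicate block, -0.24 without arrays of low eggshell index and -0.095 to 0.20 over lines left out, lowest without line 380. Tomato minus standard was -0.076, -0.31, -0.18, -0.35 and -0.015 to 0.22 in the same settings, and ethanol minus standard -0.12 without arrays of low eggshell index. None of these passed the test in either direction. Fad2, eloF and Desat1 kept their signs in all settings run.

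Array numbers are shared between foods only in part. The correlation of deviations of ethanol and standard arrays numbered 2 had no common sign, from -0.56 to 0.63 over the 8 lines. Tomato arrays were not compared by number, so pairing by number was not settled. With the number as a replicate block, members passed in the same counts (5 between lines, 0 otherwise). Of all probe sets, 8806 passed between lines in that fit and 8 for ethanol against standard. In that fit the tomato minus standard difference of CG9747 was -0.26 (adjusted p = 0.95). CG17821 was not tested in the upper 40% of probe sets.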
